A study of Drosophila melanogaster with 4 samples.

Results

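The genes described here are 10 neural cell adhesion genes of Drosophila melanogaster, namely the classical cadherins CadN, CadN2 and shg, the fasciclins Fas1, Fas2 and Fas3, the surface proteins Nrg and Nrt, and the teneurins Ten-m and Ten-a. They were chosen by name and looked up by exact symbol in a list of genes with binding peaks of the homeodomain transcription factor Prospero (Pros). The list was 1 result of a targeted DamID study of dissected brains from larvae of the 3rd instar. Of the 10 genes, 8 were in the authors' deposited list, which was 80% against 7.76% of all 13946 protein-coding genes (1082 genes) and 8.45% of all 17807 annotated genes of the arms. The genes were chosen with earlier results of these data known. Most of them are long, and 26.2% of protein-coding genes of the longest length decile were listed. Among genes of at least 54425 bp, as most of the 10 are, 38.7% were listed.

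In targeted DamID a bacterial adenine methylase (Dam) is tethered to a chromatin protein, marks GATC sites near where that protein sits, and is switched on only in chosen cells. The labels name 4 samples, which carried Dam fused to full-length Prospero (Dam-ProsFL), Dam fused to Prospero ΔN7 (Dam-Pros∆N7), Dam fused to the heterochromatin protein HP1a (Dam-HP1a), and Dam alone (Dam-ctr). All 4 shared the driver GMR71C09-GAL4 and the temperature-sensitive inhibitor Gal80ts, and the design text gives 3 biological replicates for each. The brain was dissected whole, so the driver alone set which cells were marked, and the series title calls these central brain neural precursors and neurons.

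The list holds names and identifiers only. It has no peak height, peak position or replicate value, so a gene could be scored as listed or not listed, the depth behind a call is unknown, and no test between samples was made. Whether full-length Prospero or ΔN7 gave the list is not stated. Some entries may be missing from the list as analysed, and a gene called not listed is one not found among those entries. Of the cell type markers looked up, the list named 4 of 4 for neuroblasts (dpn, ase, wor and mira). It named 1 of 4 for neurons (elav, but not nSyb, brp or Syt1) and 2 of 3 for glia (gcm and nrv2, but not repo). For muscle it named 0 of 3 (Mhc, Mef2 and Tm1). In the 6th and 7th length deciles, which hold the neuroblast markers, gcm and repo, 5.02% and 5.30% of protein-coding genes were listed. In the 9th decile, which holds elav, nSyb and nrv2, 12.5% were. In the longest decile, which holds brp, Syt1 and the muscle markers, 26.2% were. The 1 of 4 for neurons is thus near the shares at those lengths. A listed marker shows a peak assigned to that gene and not that the gene is expressed.

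Cadherins are calcium-dependent adhesion proteins that bind their own kind on the next cell and are tied to actin through catenins. Fasciclins were found on bundled axons, and the name joins unrelated proteins. Fas1 has fasciclin domains and is anchored in the membrane by a lipid, while Fas2, the fly counterpart of vertebrate NCAM, and Fas3 have immunoglobulin domains. Teneurins are large transmembrane proteins that pair neurons with their synaptic partners. Prospero moves from the neuroblast into its daughter cell and ends self-renewal there, ahead of the stage at which a neuron grows an axon and uses such proteins.

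Among the classical cadherins 2 of 3 genes were listed. CadN (FBgn0015609), the N-cadherin that growing axons use to select target layers, was in the authors' deposited list with 1 gene entry. The E-cadherin gene shg (FBgn0003391), which acts in epithelia and in contacts of neuroblasts with glia, also had 1 gene entry. CadN2, a close paralogue of CadN, was not listed. CadN and CadN2 are direct neighbours on arm 2L, with 8.63 kb and no other gene between them, and they differed in the list all the same. CadN is 131.3 kb long and CadN2 88.3 kb, a ratio of 1.49, and both lie in the longest 50th of protein-coding genes. RefSeq annotates 12 transcripts for CadN and 2 for CadN2.

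All 3 fasciclin genes were listed, each with 1 gene entry. They were Fas1 (FBgn0285925) on arm 3R, Fas2 (FBgn0000635) on arm X and Fas3 (FBgn0000636) on arm 2L. Fas2 and Fas3 were close in length, at 73.2 and 73.3 kb, and Fas1 was 14.5 kb. Each of the 3 has 7 annotated transcripts.

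Of the other surface proteins, Nrt was listed and Nrg was not. Nrt (FBgn0004108, arm 3L) encodes neurotactin, an adhesion protein with a cholinesterase-like outer domain that lacks the catalytic function. Nrg encodes neuroglian, the fly protein of the L1 family, which has a neuronal and a more general isoform. Nrg shares immunoglobulin and fibronectin type III domains with Fas2, and both lie on arm X, with 517 genes between them. Fas2 was listed and Nrg was not. Counting Nrg with the fasciclins would give 3 of 4.

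Both teneurin genes were listed, Ten-m (FBgn0004449, arm 3L) and Ten-a (FBgn0267001, arm X), with 1 gene entry each. Their products match olfactory axons with the dendrites of their partner neurons and organise the neuromuscular synapse. Thus the teneurin pair was listed on both sides and the N-cadherin pair on 1 side. Ten-a is 291.5 kb long with 11 annotated transcripts, and Ten-m is 114.8 kb with 3, a length ratio of 2.54. None of the 8 listed genes had a transcript entry under its exact symbol beside its gene entry, out of 72 transcript entries in the list. A transcript entry under another form of the name would not have been counted.

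**Figure D1:**
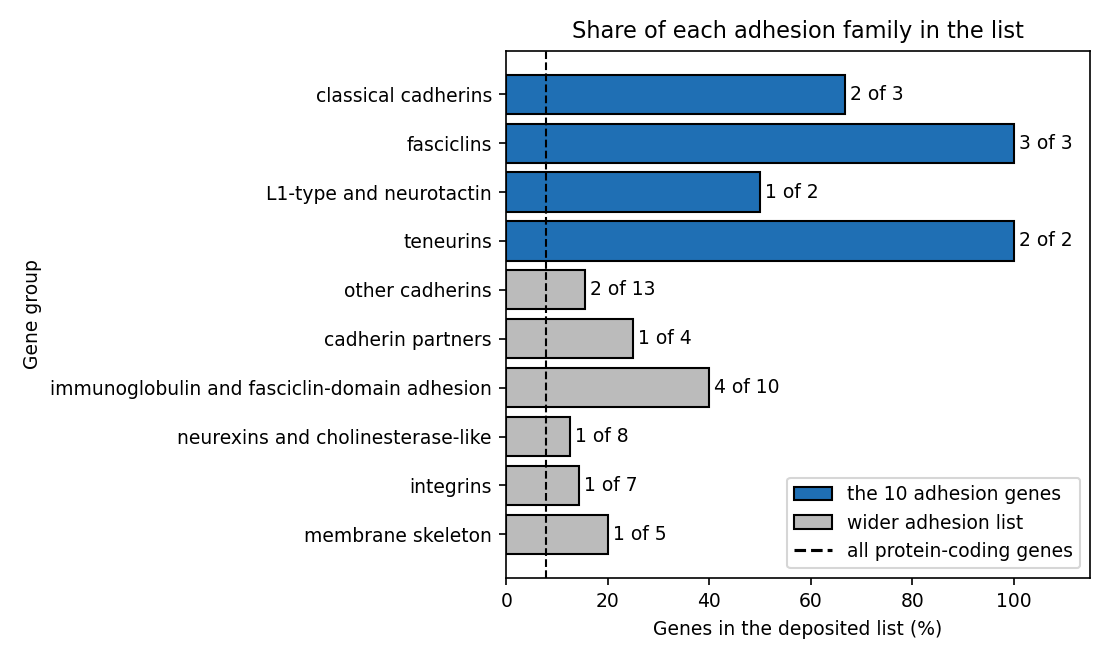
Horizontal bars give the percentage of each gene group named in the authors' deposited list, with the count at the bar's end. Blue bars are the families of the 10 adhesion genes and grey bars the groups of the wider adhesion list. The dashed line is the 7.76% of all protein-coding genes, of any length. Fasciclins (3 of 3) and teneurins (2 of 2) are complete, and neurexins and cholinesterase-like genes (1 of 8) have the lowest share.

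A wider list of 47 adhesion genes outside these 10 was counted in the same way, and 10 of them (21.3%) were listed. Of 13 other cadherin genes 2 were listed, stan (FBgn0024836), which encodes the multi-pass cadherin Flamingo of planar polarity and dendrite growth, and Cad74A (FBgn0036715). The protocadherins of the Fat and Dachsous type (ft, ds and kug) were not listed, nor were Cad86C, Cad87A, Cad88C, Cad89D, Cad96Ca, Cad96Cb, Cad99C and Cals. Among the cytoplasmic partners of cadherins, arm (FBgn0000117), which encodes the fly beta-catenin, was listed, and alpha-Cat, p120ctn and Vinc were not. The E-cadherin gene and the beta-catenin gene were thus both listed, without the alpha-catenin gene that completes their complex.

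Immunoglobulin and fasciclin-domain genes outside the 10 were listed for 4 of 10. Lac (FBgn0010238) encodes Lachesin, a septate junction protein, and klg (FBgn0017590) encodes Klingon, a homophilic adhesion protein. Ama (FBgn0000071) encodes Amalgam, the secreted ligand of neurotactin. Ama on arm 3R and the receptor gene Nrt on arm 3L were both listed. The partner pairs Nrt with Ama, shg with arm and Nrg with Ank2 were not among the pairs planned. The gene ed (FBgn0000547), which encodes Echinoid, was listed, and its paralogue fred was not. That pair, singled out after its values were seen, has lengths of 84.4 and 88.8 kb and 3 annotated transcripts each, and lies on arm 2L with 7 genes between. The genes mfas, which has fasciclin domains as Fas1 does, nrm, wrapper, Cont and tutl were not listed.

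In the remaining groups 1 gene each was listed. Nrx-IV (FBgn0013997), a septate junction neurexin, stood alone among 8 neurexin and cholinesterase-like genes, and Nrx-1, Nlg1, Nlg2, Nlg3, Nlg4, Gli and glt were not listed. The last 6 share the cholinesterase-like fold of the listed gene Nrt. Among 7 integrin genes only mew (FBgn0004456), an alpha subunit, was listed. Among 5 membrane skeleton genes only Ank2 (FBgn0261788) was listed, the neuronal ankyrin that holds neuroglian at the membrane, whereas Nrg itself was not.

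The share of listed genes rose with length mainly among the longer genes. It was 4.59% in the shortest decile, 4.87% in the 5th, 12.5% in the 9th and 26.2% in the longest. The share at the members' own lengths therefore stands beside their counts. The 10 adhesion genes had a median length of 73.3 kb (73274 bp), against 6486 bp for listed and 2066 bp for not listed protein-coding genes. Of the 10, 7 lie in the longest decile, where 26.2% of protein-coding genes were listed, and 5 of these 7 were. The other 3 (shg, Fas1 and Nrt) lie in the 9th decile, where 12.5% were listed, and all 3 were. Over both deciles pooled with equal weight 19.4% of genes were listed. This lies below the 26.2% of the longest decile, which holds 7 of the 10 members.

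Within the longest decile, split by length into 5 equal bins, the share was highest in the last bin. It lay between 22.2% and 24.4% in each of the other 4 bins, and was 38.7% among genes of at least 54425 bp (108 of 279). That last bin holds CadN, CadN2, Fas2, Fas3, Ten-m and Ten-a, and Nrg falls in the bin before it, where 23.7% were listed. Length did not order the 10 genes by listing. The genes not listed, CadN2 and Nrg (37.8 kb), are the 4th and 7th longest, and the shortest gene, shg at 7.54 kb, was listed. In the wider adhesion list 5 of 23 genes of the longest decile were listed (21.7%), near the 26.2% of all genes of that decile. Of its 17 genes in the 9th decile 4 were listed, beside 12.5% of all genes there, and of its 7 genes in the 6th to 8th deciles 1 was, beside 5.71%. The part of gene length in the members' count was not tested.

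**Figure D2:**
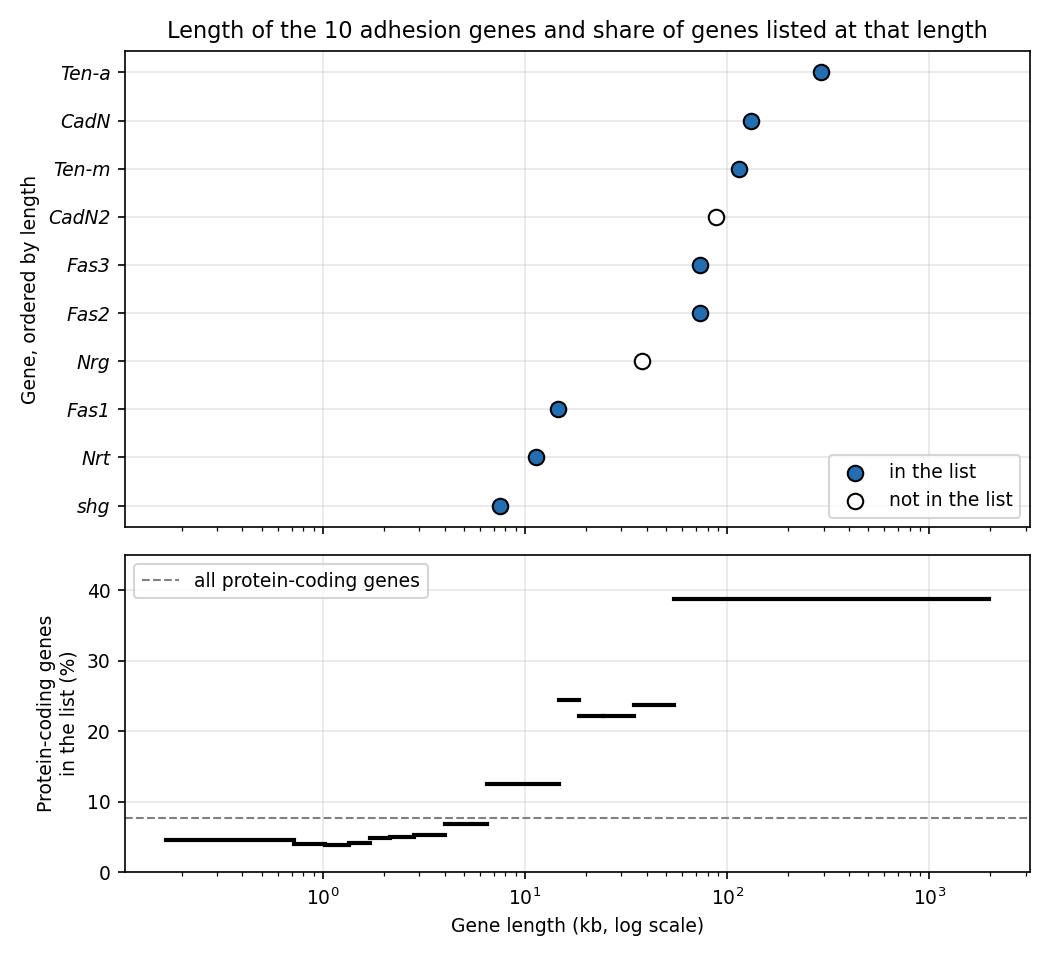
The upper panel shows the length of each adhesion gene in kb on a log scale, filled where the gene was in the authors' deposited list and open where it was not. The lower panel shows the percentage of protein-coding genes listed in each length decile, with the longest decile split into 5 bins, as a bar spanning that bin's lengths, and the dashed line marks 7.76%. The open symbols of CadN2 (88.3 kb) and Nrg (37.8 kb) lie among filled ones.

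RefSeq annotates a median of 7 transcripts for the 10 adhesion genes, against 2 for listed protein-coding genes and 5 for listed genes of the longest decile. Nrg, with 9 transcripts, has more than 6 of the 8 listed genes (all but CadN and Ten-a), and shg, with 1, was listed.

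Because no source says how peaks were tied to genes, the genes around each adhesion gene were examined. The 5 nearest non-overlapping genes on each side made 93 distinct genes other than the 10. Of these 5 (5.38%) were listed, beside 8.45% of all annotated genes. CadN, Fas1, Fas3, Ten-a and Nrg had none among their 10 flanking genes. Of the 8 listed adhesion genes, 4 (50%) thus had no listed flanking gene, against 22.6% of all listed protein-coding genes and 39.6% of listed genes of the longest decile. The mean number of listed flanking genes was 0.625 for these 8, 2.32 for all listed protein-coding genes and 1.51 for listed genes of the longest decile. Over listed and not listed genes together the share without a listed flanking gene was 50% for the 10 adhesion genes, 63.4% for all protein-coding genes and 59.6% for the longest decile.

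The nearest listed gene outside the gene's own span was far from Fas3 (369.4 kb, ham) and from Ten-a (324.2 kb, Tis11), and lay 55.8 kb from CadN (Oli), 23.6 kb from shg (ND-B14.7) and 16.9 kb from Fas1 (Ubx). The median of this distance was 21.4 kb for the 8 listed adhesion genes, 18.0 kb for listed genes of the longest decile and 3.41 kb for all listed protein-coding genes. These neighbours were named after their values were seen. For Nrg the nearest was oc, at 75.0 kb, and for CadN2 it was CadN.

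Most direct neighbours of the members were not listed, as is so of genes in general, of which 8.45% were listed. Fas2 has the short genes CG43288 and CG15571 as the first and second genes on 1 side, 6.93 and 10.8 kb away, and both were listed, while GlcAT-I, 53 bp away on the other side, was not. Nrt has the long non-coding RNA lncRNA:CR46214 at 3.39 kb, which was listed, and CG9705 at 2.63 kb, which was not. The genes next to Fas1, Ccdc114 at 520 bp and nonA-l at 433 bp, were not listed, nor was cpa at 589 bp from shg or IleRS at 233 bp from Ten-m. The direct neighbours of Nrg, CG33181 at 343 bp and IntS4 at 68 bp, were not listed either. At Fas1, shg, Fas2 and Ten-m the listed gene therefore has a gene closer than 1 kb that is absent from the list.

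The genes on either side of the remaining members were also not listed, apart from CadN itself. They were lncRNA:CR45699 and CadN2 beside CadN, lncRNA:CR43420 beside CadN2, lncRNA:CR45148 beside shg, lncRNA:CR44489 and lncRNA:CR44486 beside Fas3, lncRNA:CR45237 beside Ten-m, and Cyp318a1 and CG2577 beside Ten-a.

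**Figure D3:**
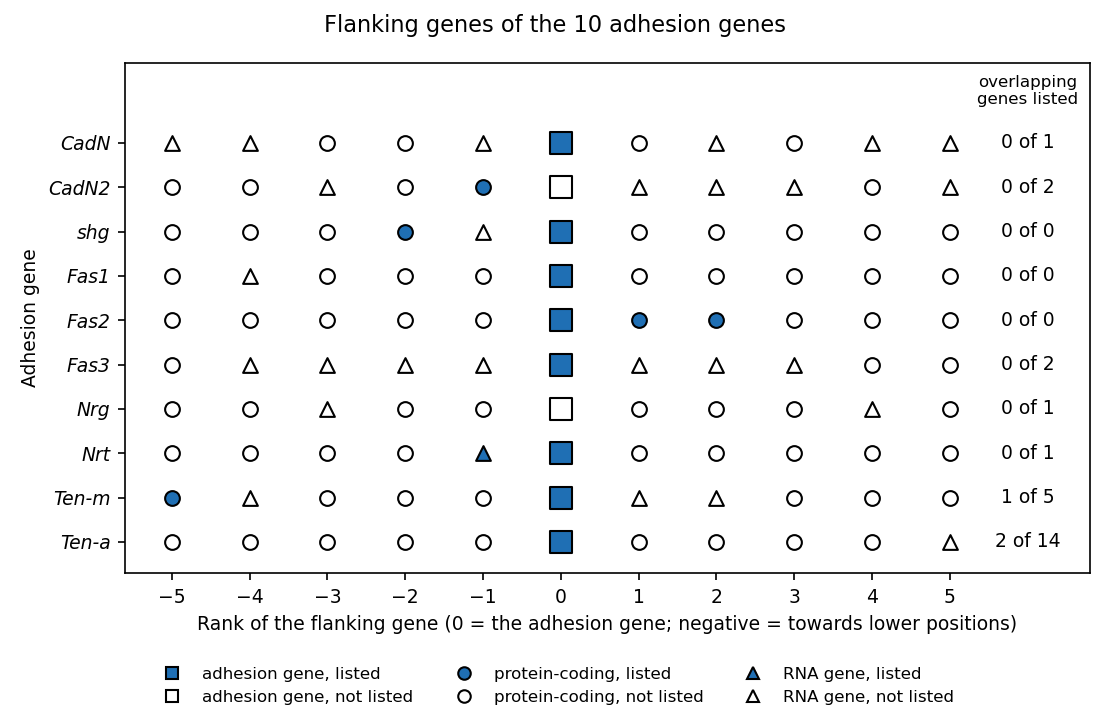
Each row is 1 adhesion gene (square at rank 0) with the 5 nearest non-overlapping genes on each side in their order along the chromosome, not to scale. Filled symbols were in the authors' deposited list and open ones were not, circles are protein-coding genes and triangles RNA genes, and the column at the right counts overlapping genes. Filled flanking symbols appear beside CadN2 (CadN itself), shg, Fas2 (2 genes), Nrt and Ten-m.

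Genes that overlap a member were listed at the teneurins and at no other member. The 10 adhesion genes overlap 9 long non-coding RNA genes, of which 3 were listed, and 17 protein-coding genes, of which 0 were. The listed RNAs were lncRNA:CR45962 (59.4 kb) at Ten-m and lncRNA:CR43960 (72.3 kb) and lncRNA:CR43961 (2.94 kb) at Ten-a. At Ten-m the shorter RNAs lncRNA:CR45963, lncRNA:CR45964 and lncRNA:CR45965 and the protein-coding gene CG32450 were not listed. At Ten-a lncRNA:CR32657 and lncRNA:CR32658 were not, nor were the 10 protein-coding genes Uch-L5R, Muc11A, CG34323, moon, CG15734, CG11356, CG2750, CG1924, CG32655 and CG45603. The lncRNA gene that overlaps CadN2, lncRNA:CR43419, was not listed.

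For comparison, 16.8% of all long non-coding RNA genes were listed. Of those that overlap a listed protein-coding gene of the longest decile the share was 43.6% (72 of 165), and of those that overlap a not listed gene of that decile it was 0.749% (2 of 267). The 8 listed adhesion genes gave 3 of 8. Of protein-coding genes that overlap listed genes of the longest decile 24.3% (100 of 412) were listed. The listed adhesion genes gave 0 of 15, and most of these 15 lie at Ten-a alone. The protein-coding genes within or across the other members, CG43231 at CadN, CG42830 at CadN2, Acp36DE and CG34171 at Fas3, PIP82 at Nrg and mus302 at Nrt, were all not listed. Whether 1 peak was assigned to both a teneurin gene and the RNA gene that overlaps it was not tested, since the list gives no peaks.

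By chromosome arm the members were spread over 2L (CadN, CadN2 and Fas3), 2R (shg), 3L (Nrt and Ten-m), 3R (Fas1) and X (Fas2, Nrg and Ten-a). Of protein-coding genes 6.29% were listed on 2L, 8.28% on 2R, 9.09% on 3L, 7.59% on 3R and 7.46% on X. No 2 of the listed members are neighbours. CadN and Fas3, both listed on 2L, have 541.8 kb and 64 genes between them.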

How the data were processed

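Per the file header, the deposited table names genes with Prospero peaks by name, identifier and symbol, with 1584 entries (1512 gene and 72 transcript identifiers) and no measured value. No source used here gives the aligner, peak caller, threshold, assignment rule or build. Per the labels' protocols, DpnI-cut, adaptor-ligated DNA was digested with DpnII and amplified before sequencing.

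Gene entries were matched to the RefSeq gene table of Release 6 plus ISO1 MT by symbol, name or older symbol (1507 of 1512 matched, 1504 genes). That table gave arms, lengths, distances and neighbours as properties of genes, and no coordinates are printed. Members were taken by exact symbol, and listing was counted by family, by length decile, and for the 5 nearest genes on each side. Named were all members, their overlapping and adjacent genes, and the wider-list genes. The list holds no sample values, so no test was made, and the averaged profiles that the labels name were not used here. The members and lists were chosen with earlier results of these data known. Matching and neighbour steps were checked on simulated data. Python 3.11.15, pandas 2.3.3, numpy 2.4.6, scipy 1.17.1 and matplotlib 3.10.9 were used.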

Additional observations from a re-analysis of the deposited data

How the results depend on the processing

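The count of 8 listed members was the same with older symbols, with gene identifiers only and with letter case ignored. Counting Nrg among the fasciclins and leaving Nrt out could not change their 3 listed genes, because Nrg is not listed, and made the count 3 of 4. The wider list gave 10 listed genes with gene identifiers only and with 1 gene per run within 10 kb, and 18 of 57 together with the members. The background share of 7.76% was 8.45% over all annotated genes, 19.4% in the members' length deciles, 20.4% in the members' own strata among 50 length strata (chosen after seeing the data) and 7.76% on the arms that hold members. The 19.4% and 20.4% weigh each decile or stratum equally. Most members lie in the longest stratum, where 38.7% were listed. Listed flanking genes numbered 5 of 93 with 5 genes on each side, 4 of 57 with 3 and 6 of 92 with protein-coding neighbours only. The planned promoter motif counts and protein identities were not run, because no sequences were at hand. No paired analysis was possible because the results come from no test. Depth is unknown, and a gene not listed may have lain below a threshold that is not given.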
